A study of Mus musculus with 9 samples.

Results

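Alpha-defensins were represented on the array by 28 probes with 14 symbols that begin with Defa or Defcr, of 45281 probes in all. Of these, 8 probes with 7 symbols had a detection p-value below 0.05 on all 3 arrays of CHIRON-treated cells, and they are the alpha-defensin probes described here. The detection p-value is the scanner software's measure of whether a probe was brighter than negative control probes on the same array. The 8 probes made up 28.6% of the family, and 35.4% of all probes on the array met the same rule. The probes were chosen by their measured detection p-values on the treated arrays, so their higher signal in treated cells is given as a description, with no test.

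The cells were mouse epiblast stem cells, pluripotent cells with properties of the epiblast after implantation. They were male, of 129 background, carried a dsRed2 fluorescent reporter, and grew in medium with activin A (20 ng/ml) and bFGF (10 ng/ml). Cells given 3 µM CHIRON for 48 h, cells sorted as dsRed2 positive and cells sorted as dsRed2 negative made up the 3 groups, with 3 biological replicates and 3 one-colour Illumina arrays each. CHIRON commonly refers to CHIR99021, which inhibits GSK3 and thereby turns on Wnt signalling through β-catenin. Whether the treated cells went through the sorter is not settled by the labels, so effects of drug and sorting cannot be told apart. The element driving dsRed2 is not named either. The epiblast factors Pou5f1, Sox2, Nanog, Fgf5 and Otx2 were detected on all 9 arrays, but their levels differed between groups. Treated minus negative (log2) was -3.46 for Nanog, -1.84 for Pou5f1, -0.96 for Sox2, 1.83 for Fgf5 and 1.22 for Otx2. Between 36.7% and 41.1% of all probes were detected per array. Treated replicate 3 stood apart from the other treated arrays: over 1559 bright genes the SD of its log2 difference was 0.337 from replicate 1 and 0.345 from replicate 2, against 0.123 between replicates 1 and 2. Results below are therefore also given without it.

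Alpha-defensins are small cationic peptides with disulfide bonds that kill bacteria by disturbing their membranes. In the mouse small intestine they are called cryptdins, are made and secreted by Paneth cells at the base of the crypts, and are activated from their precursors by the protease matrilysin, the product of Mmp7. Human neutrophils store alpha-defensins, whereas mouse neutrophils are known to lack them. In mouse crypts, maturation of Paneth cells and their cryptdin expression are known to depend on Wnt/β-catenin signalling through the factor Tcf7l2. The genes lie in a cluster of many close copies, and symbols with the letters rs denote cryptdin-related sequences.

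Promoters of the family are shown because they display both how alike the copies are and which letters they share. RefSeq (build GRCm38.p6) gave a promoter for 16 alpha-defensin genes, all on chromosome 8. Of the 7 symbols described here, only Defcr-rs7, listed there as Defa31, could be matched to one of them. The 150 bases before the annotated start are printed 5′ to 3′ on the strand of the gene. Capitals mark ATCAAAG, which is the reverse complement of the TCF/LEF sequence CTTTGAT, and the TATA box letters TATAAA. Defa31 is at chr8:21191423-21191572 on the plus strand, Defa20 at chr8:21509108-21509257 on the plus strand, Defa35 at chr8:21064888-21065037 on the plus strand, and Defa42 at chr8:21456518-21456667 on the minus strand.
Defa31: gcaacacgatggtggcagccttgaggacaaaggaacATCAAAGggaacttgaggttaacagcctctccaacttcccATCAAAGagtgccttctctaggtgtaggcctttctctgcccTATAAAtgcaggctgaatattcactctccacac
Defa20: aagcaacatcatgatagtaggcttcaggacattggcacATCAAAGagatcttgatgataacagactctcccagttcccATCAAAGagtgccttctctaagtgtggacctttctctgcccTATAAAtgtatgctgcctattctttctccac
Defa35: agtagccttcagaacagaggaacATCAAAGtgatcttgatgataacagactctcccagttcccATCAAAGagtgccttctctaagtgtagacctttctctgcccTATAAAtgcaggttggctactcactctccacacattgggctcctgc
Defa42: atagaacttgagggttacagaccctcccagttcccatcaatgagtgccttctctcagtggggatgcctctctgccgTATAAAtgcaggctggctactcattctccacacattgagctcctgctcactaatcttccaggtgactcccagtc
Defa31, Defa20 and Defa35 hold the TCF/LEF letters at 2 places, and Defa42 was shown as a copy without them.

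Over the 250 bases before the start, CTTTGAT on either strand occurred in 13 of 16 alpha-defensin promoters (81.2%), against 1053 of 32851 promoters in the table (3.21%). It occurred at 2 or more places in 9 of 16 (56.2%), against 27 of 32851 (0.0822%). In Defa31 the 2 matches began 114 and 74 bases before the start, and TATAAA began 33 bases before it. TATAAA occurred in 15 of 16 (93.8%), against 12.4% of all promoters. The other TCF/LEF form searched, CTTTGAA, and the GATA letters AGATAA occurred in 0 of 16, against 4.46% and 9.99% of all promoters. The motifs searched do not overlap each other in these windows, and the 16 promoters are related copies, so they are not independent occurrences. A match describes letters only and was not tested as a binding site. The promoters are those of the reference genome and were not read from the cells studied.

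Defcr-rs7 was read by 2 probes, both far above background in treated cells. For the probe ILMN_2524945 the treated signals were 712, 684 and 4880 (replicates 1, 2 and 3). On the dsRed2 positive arrays they were 86.1, 91.9 and 94.5, and on the dsRed2 negative arrays 93.2, 94.3 and 93.1. After background correction and quantile normalization its log2 intensity was 8.98, 9.52 and 11.90 in treated cells, 4.19, 4.21 and 4.29 in positive cells and 4.37, 4.27 and 4.22 in negative cells. Every treated array lay above every sorted array, and none of the sorted arrays detected the probe. The means were 10.14 ± 1.55 in treated cells and 4.29 ± 0.08 in negative cells (log2, SD, n = 3 each). Where no array of the dimmer group detected a probe, the fold is a lower bound, set against the lowest detected signal of those arrays or the probe's own signal if that was higher. For this probe it was at least 42.8-fold over negative cells and at least 42.6-fold over positive cells. Without treated replicate 3 the bound over negative cells was 23.2-fold.

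The probe ILMN_2607813 for Defcr-rs7 was the 1 alpha-defensin probe of the 8 that was also detected in sorted cells, on positive replicates 2 and 3 and negative replicate 2. Its log2 intensity was 9.38, 9.64 and 12.01 on the treated arrays, 4.30, 5.05 and 4.74 on the positive arrays and 4.36, 5.23 and 4.63 on the negative arrays. The treated arrays again lay above all sorted arrays without overlap. The difference from negative cells was 5.60 and from positive cells 5.65 on the log2 scale, and 4.77 and 4.81 without treated replicate 3. These sizes rest on sorted values near background. Both Defcr-rs7 probes thus read the same order of the treated arrays, with replicate 3 far above the other two.

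Defcr-rs2, another cryptdin-related sequence, had 1 probe (ILMN_1231872). Its log2 intensity was 8.72, 8.87 and 11.13 in treated cells, 4.23, 4.36 and 4.22 in positive cells and 4.28, 4.35 and 4.27 in negative cells. No sorted array detected it, and treated cells were at least 28.9-fold above negative cells and at least 28.8-fold above positive cells. Without treated replicate 3 the bound over negative cells was 16.9-fold.

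For Defcr-rs10, also a related sequence, treated replicates 1 and 2 lay only a little above background. Its probe ILMN_2746576 was at 5.54, 5.67 and 8.61 (log2) in treated cells, 4.25, 4.38 and 4.22 in positive cells and 4.32, 4.28 and 4.19 in negative cells. The lower bound over negative cells was 3.70-fold with all treated arrays and 1.85-fold without replicate 3, whereas replicate 3 alone gave 14.9-fold. Replicate 3 exceeded the mean of replicates 1 and 2 by 3.01 on the log2 scale, the largest such excess among the 8 probes.

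Among the cryptdins proper, Defcr6 (ILMN_1254739) was at 8.14, 8.51 and 10.64 (log2) in treated cells, 4.22, 4.26 and 4.31 in positive cells and 4.18, 4.45 and 4.22 in negative cells. Treated cells were at least 20.8-fold above either sort, and at least 12.2-fold above negative cells without replicate 3. Defcr3 (ILMN_2524832) was at 6.61, 6.63 and 8.89 in treated cells, 4.38, 4.31 and 4.37 in positive cells and 4.38, 4.29 and 4.25 in negative cells. For Defcr3 the bound over negative cells was 6.32-fold, and 3.74-fold without replicate 3. Neither probe was detected on a sorted array, and for neither did a treated array overlap the sorted ones.

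Defcr26 (ILMN_2938932), listed in RefSeq as Defa26, was at 6.07, 6.05 and 8.94 (log2) in treated cells, 4.47, 4.29 and 4.30 in positive cells and 4.37, 4.32 and 4.25 in negative cells. Its bound over negative cells was 4.94-fold, and 2.54-fold without replicate 3. Defa1 (ILMN_1215673) lay closest to background, at 4.65, 5.0 and 6.86 in treated cells, 4.28, 4.31 and 4.33 in positive cells and 4.35, 4.51 and 4.26 in negative cells. Its bound was 1.72-fold over negative cells and only 1.08-fold without replicate 3, so the size given for Defa1 rests on 1 array.

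**Figure D1:**
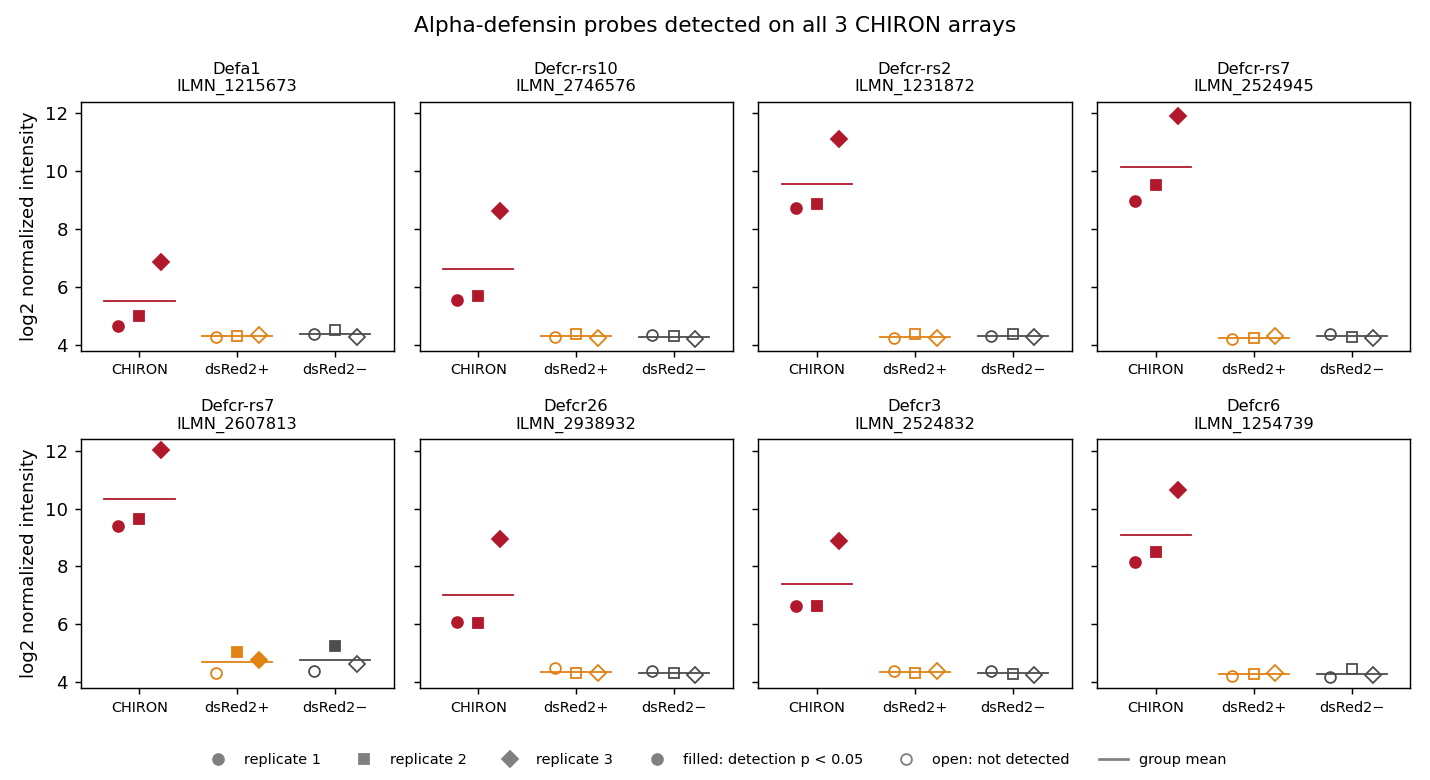
Log2 normalized intensity (vertical axis) of the 8 alpha-defensin probes, 1 panel each, on the 3 CHIRON, 3 dsRed2 positive and 3 dsRed2 negative arrays (horizontal axis); circles, squares and diamonds are replicates 1, 2 and 3, filled where detected at p below 0.05, and lines are group means. In every panel the CHIRON arrays lie above the sorted arrays and CHIRON replicate 3 is highest, at 12.01 for Defcr-rs7 ILMN_2607813.

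Across the 8 probes the difference of treated from negative cells ranged from 1.13 for Defa1 to 5.85 for Defcr-rs7 ILMN_2524945 on the log2 scale, with a median of 3.94. From positive cells it ranged from 1.20 to 5.90, with a median of 3.93. These comparisons share the treated arrays. Without treated replicate 3 the range over negative cells was 0.45 to 4.96 and the median 3.18. In the authors' deposited log2 values the differences from negative cells ranged from 0.44 to 3.81 with a median of 2.12. For all 8 probes the lowest treated value exceeded the highest sorted value, as it did for 21.2% of the 19074 probes that passed the detection filter, and since the probes were chosen on the treated arrays nothing is read from this count. All 8 passed the filter of detection on at least 3 of the 9 arrays, 7 of them through the treated arrays alone. Of all 45281 probes, 1.01% were detected on all 3 treated and on no sorted array. In bulk RNA, fewer cells of a type and less RNA per cell cannot be told apart, so the data do not say whether few or many treated cells held these transcripts.

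Treated replicate 3 was the highest array for each of the 8 probes. It exceeded the mean of replicates 1 and 2 by 2.03 for Defa1 to 3.01 for Defcr-rs10 on the log2 scale, or 4.10-fold to 8.04-fold. The deposited signals, before any normalization, were 2.16 to 6.85 times as high on replicate 3 as on replicate 1. Replicates 1 and 2 differed far less, with replicate 2 minus replicate 1 between -0.01 for Defcr26 and 0.53 for Defcr-rs7 ILMN_2524945. Over the 19074 probes the same excess had a median of -0.03 and an SD of 0.415. Only 50 probes (0.262%) lay at or above the lowest alpha-defensin value of 2.03, the 8 alpha-defensin probes and 42 others, while 11 lay as far below 0. The 42 others included probes for Acta2, which encodes smooth muscle actin, Edn1, which encodes the vasoconstrictor peptide endothelin 1, Tnc, which encodes the matrix protein tenascin C, and Ccn2, a matricellular protein gene.

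**Figure D2:**
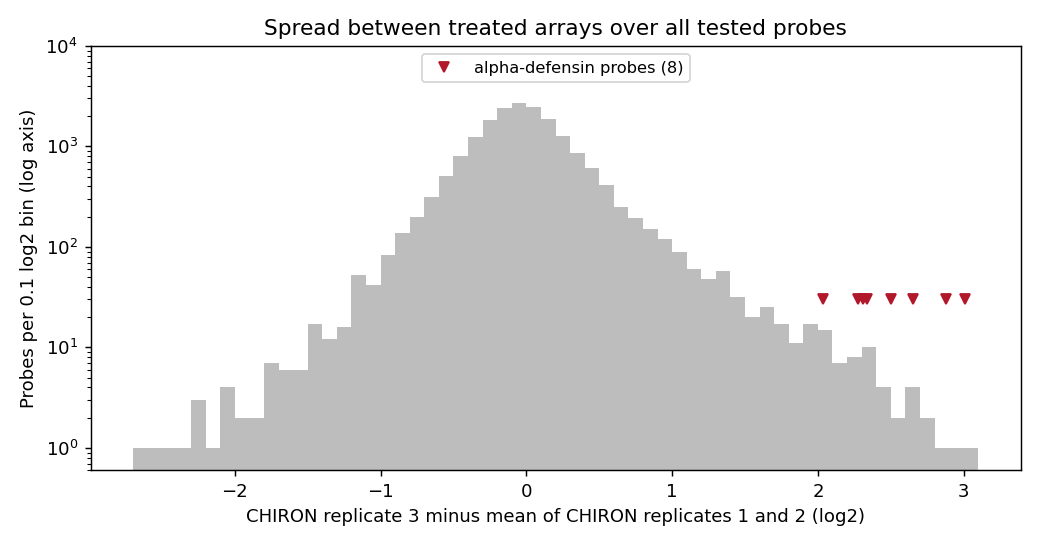
Histogram of CHIRON replicate 3 minus the mean of CHIRON replicates 1 and 2 (horizontal axis, log2) over the 19074 tested probes, with probes per 0.1 log2 bin on a log axis (vertical); triangles mark the 8 alpha-defensin probes, placed at an arbitrary height. The alpha-defensin probes lie between 2.03 and 3.01, at the upper end of a distribution with a median of -0.03.

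Some markers of fibroblasts, though not others, were higher with the alpha-defensins on treated replicate 3. Of 14 fibroblast and feeder genes 7 were tested, and their summed normalized intensity was 5113, 4976 and 16177 on treated replicates 1, 2 and 3, against 1756 to 2832 on positive and 2279 to 4514 on negative arrays. Acta2 and Vim were the brightest of the 7 on the treated arrays and weigh most in these sums. Vim was at 11.7, 11.6 and 12.8 (log2) there. Acta2 was at 10.22, 10.24 and 12.86 (log2) on the treated arrays and Col1a1, a collagen gene, at 7.65, 7.64 and 9.38, and 5 of the 7 tested were highest on replicate 3. The other two were lowest there, the surface glycoprotein gene Thy1 at 5.28, 5.43 and 5.26 and the growth factor receptor gene Pdgfra at 6.40, 6.42 and 6.23. Against negative cells limma called 4 of the 7 higher and 1 lower, where 20.1% of all genes were higher and 19.9% lower. The 4 were Col1a1, Col6a1, Pdgfra and Vim, and the lower one was Thy1, which fell by 2.40 ± 0.26 (limma adjusted p = 6.3e-05). With 1 array left out, 3 to 4 of the 7 were higher and 1 to 2 lower. Against positive cells 5 were higher and 1 lower, where 20.5% of all genes were higher and 20.5% lower. Col1a2, Col3a1, Postn, Lum and S100a4 were detected on no array. The 15 epiblast genes tested summed to 17473, 17198 and 10545 on the treated arrays, against 16828 to 20486 on positive and 16539 to 17497 on negative arrays. Bright genes weigh most in this sum, such as Dnmt3b at 13.04, 12.86 and 12.04 (log2) on the treated arrays. By gene, limma called 8 lower and 4 higher than in negative cells, against 19.9% and 20.1% of all genes. With 1 array left out, 7 to 8 were lower and 2 to 6 higher. The part of either list in the alpha-defensin values of replicate 3 was not tested. Without replicate 3 the alpha-defensin median was 3.18 over negative cells, as given above.

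The remaining 20 family probes marked how far detection reached. Of these, 1 was detected on treated replicate 1, 0 on replicate 2 and 7 on replicate 3. The 7 included probes for Defcr-rs10, Defcr-rs12 (2 probes), Defcr20 (2 probes) and Defa1, and the 7 had signals from 117 to 303 on replicate 3, and 6 of them were detected on no sorted array. Among all 28 family probes, 9, 8 and 15 were detected on treated replicates 1, 2 and 3, against 2, 2 and 1 on positive replicates 1, 2 and 3 and 0, 2 and 1 on negative replicates. Of the 20, 12 were detected on no array, among them the probes for Defcr4, Defcr5, Defcr21 and the pseudogene Defa-ps1.

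The detection threshold cut through Defcr-rs10 and Defa1. Just inside it, the Defa1 probe ILMN_1215673 had detection p-values of 0.0417, 0.00748 and 0 on treated replicates 1, 2 and 3. Just outside it, the Defcr-rs10 probe ILMN_1218165 had 0.0417, 0.108 and 0, with signals of 114, 101 and 303. With a threshold of 0.01 in place of 0.05, 7 probes met the rule and the Defa1 probe did not. The Defa1 probe ILMN_2731509 behaved unlike the others: it was detected on positive replicates 1 and 2, negative replicates 2 and 3 and treated replicate 3, with signals of 110, 96.7 and 125 on the treated arrays, 105, 113 and 104 on the positive arrays and 95.9, 113 and 115 on the negative arrays. Its groups overlapped.

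**Figure D3:**
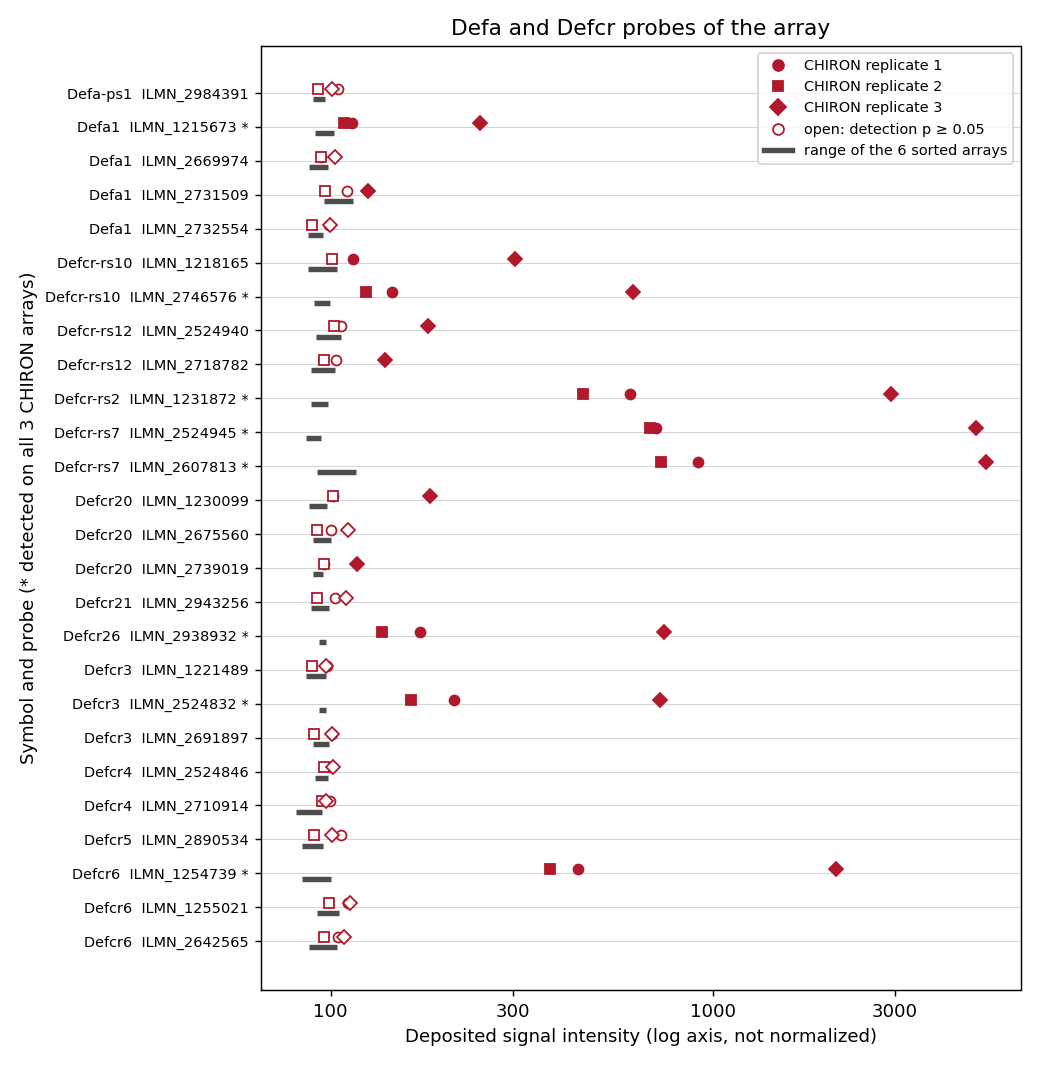
Deposited signal intensity (horizontal log axis, not normalized) of 26 of the 28 Defa and Defcr probes (rows) on CHIRON replicates 1, 2 and 3 (circles, squares and diamonds, filled where detected), with grey bars for the range over the 6 sorted arrays. Stars mark the 8 probes detected on all 3 CHIRON arrays, which reach 5190 for Defcr-rs7 ILMN_2607813 on replicate 3, while most other probes lie near 100.

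Which gene a probe reads is uncertain in this family. The sources used here hold no probe sequences, so cross-detection could not be tested by alignment. Of the 7 symbols, 2 matched a single current gene (Defcr-rs7 as Defa31 and Defcr26 as Defa26), Defcr3 matched both Defa3 and Defa17, and 4 (Defa1, Defcr6, Defcr-rs2 and Defcr-rs10) matched no current gene name. RefSeq lists 28 protein-coding Defa genes on chromosome 8 and 12 pseudogenes named Defa-ps, against 14 symbols on the array. Promoters of the 16 genes with one were 46.1% to 100% identical over 120 pairs, with a median of 69.5%. Of the pairs, 17 were over 95% identical and 5 were identical letter for letter over 250 bases, including Defa31 with Defa23 and Defa20 with Defa2. Names, counts and promoters are those of the reference genome, and whether the strain of the cells holds the same copies was not tested. The values are therefore given per probe, and none is assigned to a single gene copy.

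Probes with the same symbol disagreed. Of 5 symbols with more than 1 probe among those described here, 4 had a probe that met the rule and another that did not. For Defa1 1 of 4 probes met it, for Defcr3 1 of 3, for Defcr6 1 of 3 and for Defcr-rs10 1 of 2. The Defcr6 probe ILMN_1254739 had signals of 444, 374 and 2101 on the treated arrays, whereas ILMN_2642565 had 105, 96.0 and 108 and ILMN_1255021 had 111, 98.9 and 112, none of them detected. The Defcr3 probes ILMN_1221489 and ILMN_2691897 likewise stayed between 89.3 and 101 on the treated arrays. Both Defcr-rs7 probes met the rule. Across the 9 arrays the 8 probes correlated with each other at Pearson r of 0.85 to 0.999 over 28 pairs, which describes shared samples and an order set by the treated arrays.

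The sort by dsRed2 was not used to choose the probes, but only 1 of the 8, Defcr-rs7 ILMN_2607813, was detected on any sorted array. For the other 7 the test compares background with background, so it cannot show a difference. None of the 8 was called between positive and negative cells (limma on all 9 arrays, two-sided, Benjamini-Hochberg over 19074 probes). The same fit called 0% of all probes, with 522 at an unadjusted p below 0.05 and a lowest adjusted p of 0.9999. For Defcr-rs7 ILMN_2607813 the positive minus negative difference was -0.05 ± 0.55 (log2, SE, limma adjusted p = 0.99987). Pairing same-numbered sorted arrays, it was -0.05 ± 0.11 (limma adjusted p = 0.94065), with differences of -0.06, -0.19 and 0.11 in the 3 pairs, so 2 of 3 were lower in positive cells. The paired fit called 4 of 19074 probes (0.021%), none of them an alpha-defensin probe, with 1642 at an unadjusted p below 0.05. The other 7 probes were below background in both sorts and allow no fold. The 0.55 standard error reflects a spread shared with the treated arrays; a fit of the 6 sorted arrays alone gave -0.05 ± 0.25 (limma adjusted p = 0.99988).

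Other products of Paneth cells were mostly not read with the alpha-defensins. Of 30 listed products 29 had a probe, 16 were detected on no array, and 7 passed the filter. The 16 included Mmp7, the cryptdin-activating protease, Ang4, an antimicrobial ribonuclease, and the lectin genes Reg3b and Reg3g. Mmp7 had signals of 94.7, 94.7 and 99.6 on the treated arrays, 88.6, 95.2 and 91.2 on the positive arrays and 89.3, 98.1 and 95.8 on the negative arrays. Of 3 probes for Lyz1, the Paneth cell lysozyme gene, 1 was detected on 1 treated array. Over all 13204 genes, 20.1% were called higher in treated than in negative cells by limma and 19.9% lower. The 7 products tested gave 1 higher and 2 lower, with a median of -0.11. Best2, a bestrophin channel gene, was at least 1.28-fold higher (limma adjusted p = 4.2e-04), while Nupr1, a stress-induced chromatin protein gene, fell by 1.46 ± 0.36 (limma adjusted p = 0.0082). Pnliprp2, a lipase gene detected on no treated array, was at least 1.31-fold lower (limma adjusted p = 0.012). The other 4 were not called, with Wnt3, the Wnt ligand of Paneth cells, at 0.67 ± 0.34, Sod3 at 0.09, Egf at -0.11 and Gas6 at -0.54. Without negative replicate 1 Gas6 was called lower, at -0.77 (limma adjusted p = 0.0053), and without treated replicate 1 Wnt3 was called higher, at 0.97 (limma adjusted p = 0.048). Against positive cells, where 20.5% of genes were higher and 20.5% lower, 1 product was higher and 2 were lower, and 0 were lower without positive replicate 3, treated replicate 1 or treated replicate 2.

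Regulators of Paneth cells and of the gut epithelium moved more. Of 24 listed, 18 were tested, and 10 were higher and 0 lower than in negative cells (median 0.63). Of all genes, 20.1% were higher and 19.9% lower. The counts against positive cells were 11 higher and 0 lower, where 20.5% of all genes were higher and 20.5% lower. Among the 11, Gata4 and Gfi1 lost their calls with the deposited values (limma adjusted p = 0.1081 and 0.05013) and in several other settings. Sox9, a factor required for Paneth cell formation, rose by 4.94 ± 0.18 (limma adjusted p = 5.7e-08), and Fzd5, the Wnt receptor gene needed for Paneth cell maturation, by 3.00 ± 0.15 (limma adjusted p = 3.2e-07). Tcf7l2 rose by 1.44 ± 0.15 (limma adjusted p = 5.2e-05), Ephb2, a receptor gene that positions crypt cells and was detected on 1 negative array, by 1.67 ± 0.23, and Xbp1, a secretory stress factor, by 1.04 ± 0.16. Detected on no negative array, the endoderm factor Gata6 was at least 24.0-fold higher, the intestinal factor Cdx2 at least 10.6-fold, Lef1, a partner of β-catenin, at least 1.79-fold and Gata4, another endoderm factor, at least 1.20-fold. Ctnnb1, which encodes β-catenin, was called at 0.46 ± 0.13 (limma adjusted p = 0.019), a call lost without negative replicate 2 (limma adjusted p = 0.068) or treated replicate 1 (limma adjusted p = 0.078). The Ctnnb1 call was also lost with treated replicates 1 and 2 averaged (limma adjusted p = 0.055). With the mean of its passing probes it was lost against negative (limma adjusted p = 0.056) and positive cells (limma adjusted p = 0.14). Of the 8 not called, Gfi1 was at 0.54, Klf5 at 0.38, Atg16l1 at 0.24, Hnf4a at 0.21, Cdx1 at 0.10, Stk11 at -0.08, Tcf7 at -0.25 and Bhlha15 at -0.30. Atoh1 and Spdef, factors of the secretory lineage, were detected on no array. Without treated replicate 3 the 10 against negative cells stayed 10 in number, and against positive cells there were 10. Genes seen on treated arrays alone pass the filter only by being high there, which in part fixes such shares.

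**Figure D4:**
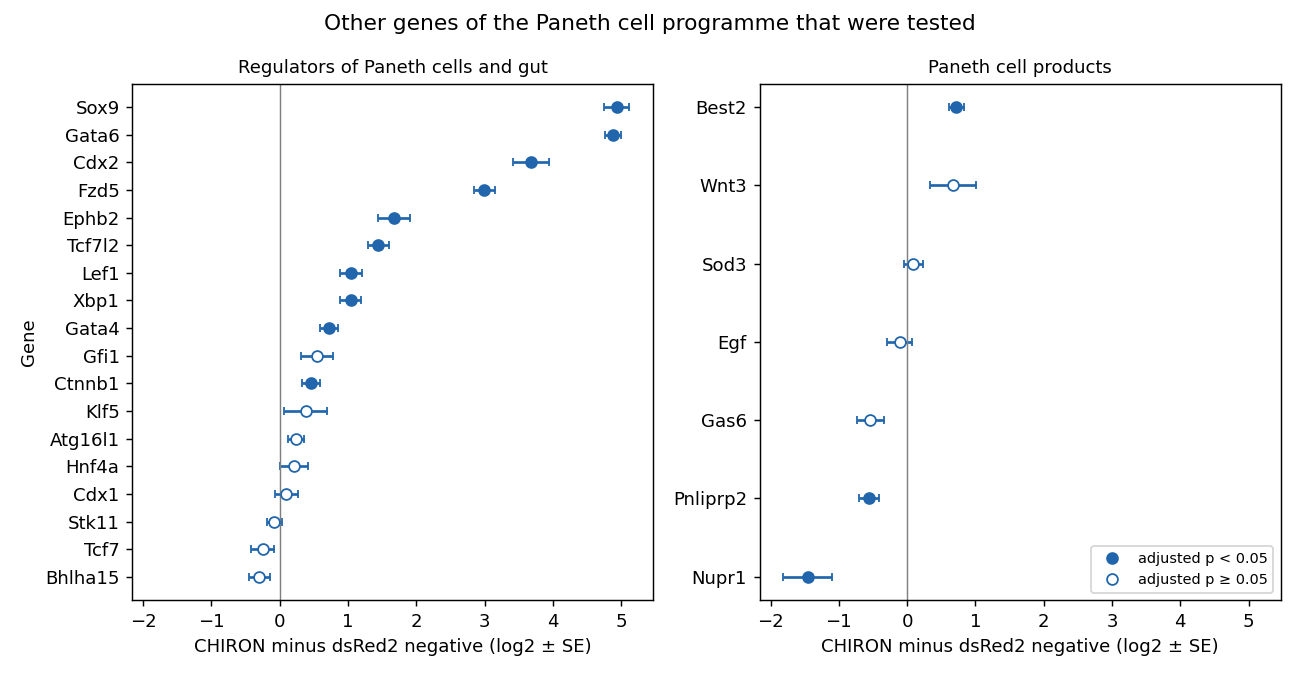
Difference of CHIRON-treated from dsRed2 negative cells (horizontal axis, log2, bars are limma standard errors, n = 3 arrays per group) for the 18 regulators (left) and 7 Paneth cell products (right) that were tested, filled where the adjusted p was below 0.05. Of the regulators 10 are filled, all to the right of 0, led by Sox9 at 4.94, whereas 1 product is filled to the right and 2 to the left.

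Lists of other cell types and functions are given for comparison, and which cells held the alpha-defensin transcripts was not tested. Of 20 neutrophil and myeloid genes 17 had a probe, 13 were detected on no array, including Mpo, Ngp, S100a8 and Ptprc, and 0 of the 2 tested were called in either comparison (limma). Of these, the protease gene Mmp9 was at 5.36, 5.32 and 7.34 (log2) on the treated arrays, highest on replicate 3 as the alpha-defensin probes were, and its part in their values was not tested. Without treated replicate 1 or treated replicate 2, 1 of the 2 was called higher than in positive cells. Goblet and enteroendocrine genes gave 3 tested of 19, with 1 higher than in negative cells, Chga, which encodes chromogranin A, and with Muc2 and Tff3 detected on no array. Enterocyte genes gave 4 tested of 18, with the apolipoprotein gene Apoa1 at least 9.02-fold higher, Anpep and Krt20 lower, and Fabp1, Alpi and Sis detected on no array. Among 25 other antimicrobial genes 6 were tested and 2 were higher than in negative cells, Pglyrp1, a peptidoglycan-binding protein gene, at least 1.32-fold and Myd88, an adaptor of Toll-like receptors, by 1.09 ± 0.12, while Camp and the beta-defensins Defb1, Defb2, Defb4, Defb6 and Defb14 were detected on no array. Of 9 intestinal stem cell genes tested 8 were higher, with the Wnt co-receptor gene Lgr5 at least 2.22-fold, and Hopx was lower, a call lost with median centring (limma adjusted p = 0.055). Of 9 digestive and pancreatic genes 8 were higher, with the pepsinogen gene Pga5 at least 138-fold, and Cpb1 was lower (-0.56 ± 0.18, limma adjusted p = 0.027). The Cpb1 call was lost without negative replicate 3, treated replicate 1 or treated replicate 3, and with no background correction, an offset of 50, the deposited values, median centring or no filter. Against positive cells Cpb1 was at -0.05 and not called. Pga5 was level over the treated arrays, at 11.89, 11.83 and 11.75 (log2), where the alpha-defensin probes were 4.10-fold to 8.04-fold higher on replicate 3.

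Genes next to the alpha-defensin cluster are listed as a description, and nothing is read from their count. Of the 20 nearest protein-coding genes not named Defa or Defb, 10 on each side in RefSeq, 13 had a probe and 6 were tested. Defensin-like genes under other names were not left out. By limma 1 was higher and 2 were lower than in negative cells, against 20.1% and 19.9% of all genes. The higher one, AY761185, gave signals of 172, 143 and 456 in treated cells, 94.6, 98.0 and 95.6 in positive cells and 88.0, 104 and 97.6 in negative cells. As for the alpha-defensin probes, treated replicate 3 was highest. Whether AY761185 is itself a defensin-like gene was not checked. It was detected on all 3 treated and 0 sorted arrays and was at least 4.23-fold higher than in negative cells (limma adjusted p = 0.0011). Ckap2, a mitotic spindle protein gene, fell by 1.47 (limma adjusted p = 6.0e-05), and Vps36, an endosomal sorting gene, fell by 0.80 (limma adjusted p = 4.0e-04). Thsd1 was called against positive cells only, at 0.59 (limma adjusted p = 0.018), a call lost without positive replicate 2 or 3 or treated replicate 1 or 3 (highest limma adjusted p = 0.062).

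Genes whose values followed the alpha-defensin mean closely over the 9 arrays included Cemip, a hyaluronan-degrading enzyme gene (Pearson r = 0.9987), the Rac exchange factor gene Tiam2 (0.9952), the secreted protein gene Olfml3 (0.9946), Evx1 (0.9943), the BMP-binding protein gene Bmper (0.9942), Vstm2b (0.9931) and the microfibril protein gene Mfap4 (0.9928). The ranking covered 10733 named genes, of which 17 exceeded 0.99, and it describes 9 arrays in 3 groups that are not independent points. Evx1, a homeobox gene of the posterior embryo, was at 7.50, 7.46 and 9.44 (log2) on treated replicates 1, 2 and 3, 4.36, 4.35 and 4.72 in positive cells and 4.61, 4.30 and 4.53 in negative cells. Cemip was at 5.99, 6.05 and 7.70 in treated cells, 4.31, 4.32 and 4.33 in positive cells and 4.31, 4.35 and 4.28 in negative cells. Like the alpha-defensin probes, these 7 genes were highest on treated replicate 3. By distance of the centred profiles instead of r, 1 of the 8 nearest genes was among the 8 of highest r, Evx1, and the others were Msx1, Cdkn2a, Mixl1, Igfbp5, Cdx2, Wnt5a and Fgf10.

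**Figure D5:**
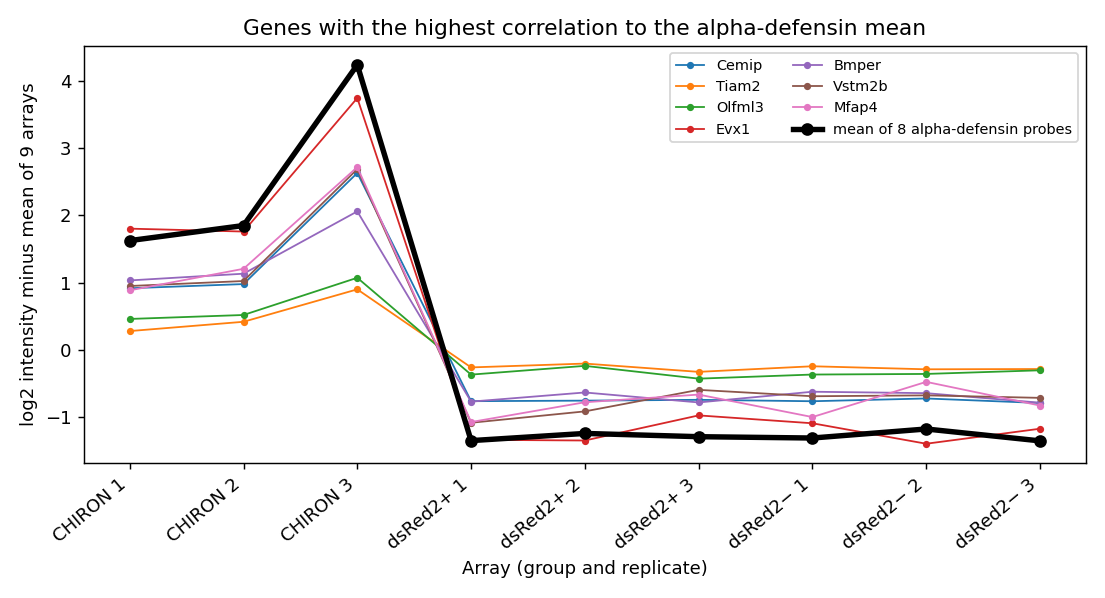
Log2 intensity minus the mean over 9 arrays (vertical axis) on each array, with CHIRON arrays at the left (horizontal axis), for the mean of the 8 alpha-defensin probes (black) and 7 of the 8 genes with the highest Pearson r to it (colours). All lines rise highest at CHIRON replicate 3 and stay low and flat over the 6 sorted arrays, and Evx1 lies nearest to the black line.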

How the data were processed

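Signal intensity per probe and array was deposited on a linear scale without normalization, per the file headers. Detection p-values were likewise deposited, per the file headers. The authors' deposited log2 values came from lumi, going by the submitters' processing notes, which as used here give neither version nor settings. RNA was column-purified, amplified and biotin-labelled, per the labels.

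Signals were corrected by normexp from the detection p-values (offset 16), quantile-normalized and log2-transformed by the neqc function (limma 3.58.1, R 4.3.3). Probes detected (p below 0.05) on at least 3 of 9 arrays were kept, 19074 of 45281, and for gene lists the brightest passing probe stood for each of 13204 genes. Group was the sole term of a limma model (lmFit, eBayes) over the 9 arrays, two-sided, with Benjamini-Hochberg adjustment at 0.05. Errors are SD or, where stated, limma standard errors. The number of arrays limits the precision. Named genes were the alpha-defensin probes and those near the threshold, all tested Paneth cell products and regulators, up to 6 genes of smallest p in other lists, called neighbours and the 8 most correlated genes, with 1 of the 8 and 1 symbol of the family not reported here; examples of undetected genes, markers given for context and genes high on treated replicate 3 were chosen after their values were seen. Symbols were brought up to date through RefSeq (GRCm38.p6), and motifs and promoter identities were computed with Biopython 1.88 in Python 3.11.15. The fitting was tested on simulated data.

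Replicate numbers paired the sorted arrays, on the evidence of the data: deviations of positive and negative arrays of one number correlated at 0.536, 0.583 and 0.351 across genes, against -0.145 to 0.101 with treated arrays. The alpha-defensin probes, the gene lists and the alternatives were chosen with earlier results of these data known. Whether replicates came from separate cultures is stated only as biological replicates.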

Additional observations from a re-analysis of the deposited data

How the results depend on the processing

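The 8 alpha-defensin probes stayed higher in treated than in sorted cells under every alternative run: other background correction, offset or normalization, the filter, array weights, the block, and each replicate left out. The size depended on background correction. Without it the median over negative cells was 2.1154 and over positive cells 2.0968, and with the deposited log2 values 2.1162 and 2.0929, against 3.94 and 3.93. Leaving out 1 array at a time gave medians of 3.1796 to 4.3737 over negative and 3.165 to 4.3591 over positive cells, the lowest without treated replicate 3. The replicate block called 0 of the 8 probes between the sorts, over 9 arrays or the 6 sorted ones, and no other alternative called any. For 7 of the 8, detected in neither sort, these fits compare background only and cannot show a difference. With 1 sorted replicate left out, the positive minus negative difference of Defcr-rs7 ILMN_2607813 ranged from -0.2349 to 0.2001, turning positive without positive replicate 1 (0.1533) or negative replicate 2 (0.2001).

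Counts of Paneth cell products were small and moved. Higher than negative cells were 3 with no filter and 2 with the replicate block over 9 arrays, and 1 to 2 with 1 array left out. Higher than positive cells were 2 with no filter, 2 with treated replicates 1 and 2 averaged, 2 with the replicate block, and 1 to 2 with 1 array left out. Lower than positive cells were 1 with no background correction, an offset of 50, the deposited values, only the 6 arrays compared or the block, 0 with median centring, no filter or averaged treated replicates, and 0 to 2 with 1 array left out. The replicate block called Gas6 lower than in negative cells (adjusted p = 0.01684), as did array weights (adjusted p = 0.00642), and called Wnt3 higher (adjusted p = 0.04913). The regulators higher than negative cells numbered 9 to 11 over all alternatives. The cause of these shifts was not tested.

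Differences that turned sign belonged to genes that were not called. With median centring, treated minus negative was 0.0079 for Egf and 0.1355 for Stk11, and treated minus positive 0.2107 for Gas6, 0.0172 for Egf, 0.0394 for Stk11 and 0.1077 for Bhlha15. With 1 array left out at a time, treated minus negative ranged from -0.2497 to 0.0618 for Egf and from -0.0441 to 0.2216 for Cdx1. Treated minus positive ranged from -0.0741 to 0.103 for Gas6, -0.1759 to 0.0422 for Egf, -0.1215 to 0.0334 for Sod3, -0.0039 to 0.2089 for Cdx1 and -0.1254 to 0.0655 for Bhlha15. Bhlha15 was also 0.0045 with the deposited values and 0.0986 with array weights, Egf 0.0099 with array weights, and Gas6 0.0296 with treated replicates 1 and 2 averaged.

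The number of arrays, 3 per group, limits precision, and sorted values of 7 of the 8 probes lie below background, so their folds are bounds. Absence of probe sequences leaves the gene behind each probe unknown.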
